A study of Homo sapiens with 6 samples.

Results

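A set of 9 enzymes that break down phenylalanine, tyrosine and tryptophan was followed through the RNA of a liver cancer line and of its lenvatinib-resistant derivative. The 9 genes were taken by name from the pathways, and each had 1 entry among the 26184 genes and loci that were counted. TAT, HPD, HGD, GSTZ1 and FAH form the tyrosine arm, and TDO2, AFMID, KYNU and KMO form the kynurenine arm of tryptophan breakdown. RNA was sequenced from Huh7 cells, an established human hepatocellular carcinoma line that the labels give as wild type. The parental cells (Huh7 P) were untreated. The resistant line (Huh7 LR) came from about 10 months of growth in lenvatinib, an inhibitor of several receptor tyrosine kinases, with the dose raised from 1 to 20 µM. That line was afterwards kept at the top dose of 20 µM. Each line gave 3 independent samples, each from a culture plate. Huh7 LR is a single derived line that is not stated to be a clone, and whether lenvatinib was present when RNA was taken is not stated, so that effects of the drug, of long selection and of chance in deriving the line cannot be told apart.

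In the liver, tyrosine, which is also made from phenylalanine, is carried by 5 successive enzymes to fumarate and acetoacetate, which enter central metabolism. Tryptophan is opened by a dioxygenase to formylkynurenine, which a formamidase turns into kynurenine, and the branch that follows leads through hydroxykynurenine to the precursors of NAD. Hepatocytes are the main site of both routes. Inherited loss of single steps of the tyrosine arm causes tyrosinaemia or alkaptonuria.

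Each library held 62738937 to 71427573 counts, so a gene with 3 counts stood at 0.042 to 0.0478 CPM, that is counts per 1000000 counts of the library. All other CPM are also scaled by TMM factors, and differences are log2 fold changes of Huh7 LR against Huh7 P from edgeR's quasi-likelihood test with its standard error and a Benjamini-Hochberg adjusted p over the 17531 genes and loci tested. A single difference was taken at an adjusted p under 0.05. Hepatocyte markers were looked at first. All 9 hepatocyte markers counted, TAT among them, were detected. ALB, TF, TTR and APOA1 were higher in Huh7 LR cells and the other 5 did not pass the test. The summed level of the 9 was 43500 to 52590 CPM in Huh7 P and 54990 to 58040 CPM in Huh7 LR libraries. Most of it was AFP and ALB, at 19590 to 26400 and 11690 to 14040 CPM in Huh7 P libraries. In Huh7 LR libraries these 2 were at 18290 to 20610 and 20270 to 22650 CPM. In these bulk samples, fewer cells with a transcript and less transcript per cell cannot be told apart.

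Of the 9 genes, 4 differed between the lines and 5 did not pass or were not tested. HGD and GSTZ1, the middle of the tyrosine arm, rose by 47.3% and 42.2%, and FAH, its last step, fell by 38.6%. TDO2, the entry to the kynurenine arm, was 2.53-fold higher at a very low level, a call that was lost without Huh7 P replicate 2. TAT, AFMID, KYNU and KMO did not pass, and HPD had too few counts to be tested.

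Of the 8 genes tested, 3 were higher and 1 was lower, which is 50% of them. Over all genes and loci tested, 45.7% passed the same threshold, 23.3% higher and 22.4% lower. The stricter threshold, an adjusted p under 0.001 with a change above 2-fold, was passed by 0 of the 8 genes and by 6.21% of all genes and loci. Libraries of the 2 lines did not overlap for 4 of the 8 genes, against 55.9% of all genes and loci. The shares for these enzymes were thus close to those of the transcriptome, and the median log2 fold change of the 8 genes was 0.09, beside 0.00461 for everything tested.

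**Figure D1:**
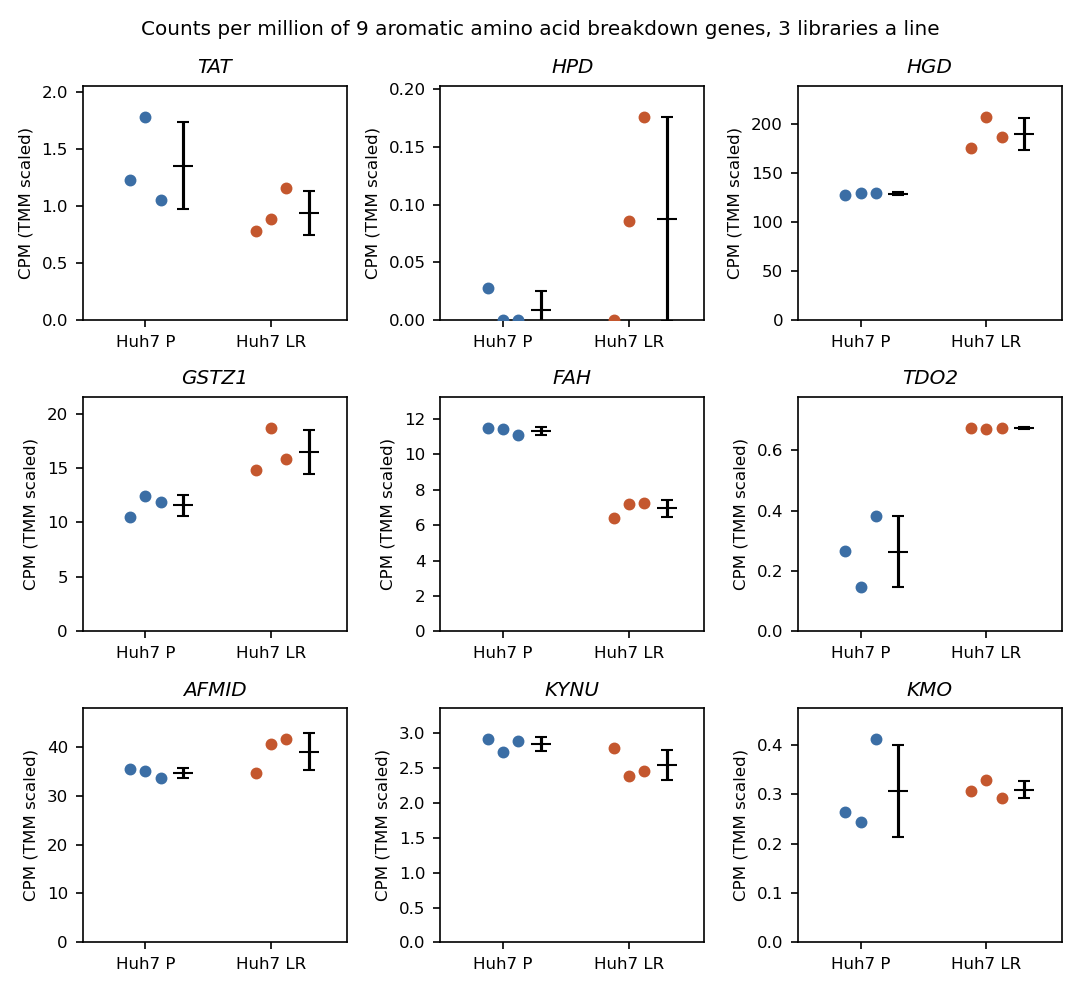
CPM, scaled by TMM, of the 9 genes (one panel each, linear axes from 0), with a point for each Huh7 P (blue) and Huh7 LR (orange) library and a bar for the mean and SD of 3 libraries, cut at 0 for HPD. The points of the lines are apart for HGD, GSTZ1, FAH and TDO2 and overlap for the other 5 genes.

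Tyrosine aminotransferase, TAT (ENSG00000198650, GRCh38 chr16:71565660-71577130, minus strand), moves the amino group off tyrosine and is known as the step that limits tyrosine breakdown and as a gene that glucocorticoids induce. Huh7 P libraries held 88, 110 and 69 counts of TAT (1.36 ± 0.38 CPM, SD, n = 3) and Huh7 LR libraries 51, 62 and 79 counts (0.942 ± 0.194 CPM, SD, n = 3). The highest Huh7 LR library lay above the lowest Huh7 P library. The log2 fold change of TAT was −0.52 with a standard error of 0.27 and an adjusted p of 0.138, and its 95% interval ran from 0.462 to 1.05 times the Huh7 P level. The interval held both a fall larger than that of FAH and a slight rise. Without Huh7 P replicate 2, the highest library, the log2 fold change of TAT was −0.27 with an adjusted p of 0.49, over a range of 0.0925 to 0.49 across 12 alternatives. TAT is on the list of hepatocyte markers, and at about 1 CPM it was by far the lowest of them. HNF4A, a hepatocyte transcription factor on that list, had a log2 fold change of −0.06 with an adjusted p of 0.608.

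HPD (ENSG00000158104, chr12:121839527-121863596, minus strand) encodes the dioxygenase that makes homogentisate, the next step. Huh7 P replicate 1 held 2 counts of HPD and the other parental libraries held 0, while the resistant ones held 0, 6 and 12. All Huh7 P libraries and Huh7 LR replicate 1 stood under the floor of 3 counts, and only Huh7 LR replicates 2 and 3 stood above it. HPD did not pass the filter on low counts and no fold is given. Without the filter its adjusted p was 0.224 in edgeR, and it was 0.228 in DESeq2.

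HGD (ENSG00000113924, chr3:120628173-120682571, minus strand), homogentisate dioxygenase, opens the aromatic ring and was the most abundant of the 9. It had 127.2, 130.1 and 129.8 CPM in Huh7 P and 175.5, 207.5 and 187.1 CPM in Huh7 LR libraries. The Huh7 P libraries lay within a few CPM of each other, and each Huh7 LR library was above all of them. HGD rose by 0.56 on the log2 scale with a standard error of 0.0754 and an adjusted p of 1.44e-04, which is 1.47-fold with a 95% interval of 1.31 to 1.65.

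GSTZ1 (ENSG00000100577, chr14:77320884-77331597, plus strand), maleylacetoacetate isomerase, takes the product of HGD to fumarylacetoacetate. Its libraries held 753, 765 and 774 counts in Huh7 P and 965, 1311 and 1081 counts in Huh7 LR cells, or 11.6 ± 0.979 and 16.4 ± 2.02 CPM (SD, n = 3 each). Every Huh7 LR library was higher than every Huh7 P library. The log2 fold change was 0.51 with a standard error of 0.114 and an adjusted p of 0.00394, and the 95% interval was 1.20 to 1.69-fold.

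FAH (ENSG00000103876, chr15:80152490-80186946, plus strand), fumarylacetoacetate hydrolase, splits the product of GSTZ1 and ends the arm. It had 11.5, 11.4 and 11.1 CPM in Huh7 P libraries, and 6.40, 7.21 and 7.27 CPM in Huh7 LR libraries. The libraries of each line were close together and far from those of the other line. FAH fell by 0.70 on the log2 scale with a standard error of 0.106 and an adjusted p of 3.08e-04, to 0.614 times the Huh7 P level with a 95% interval of 0.522 to 0.722. Among the 9 genes it alone was lower at this threshold. The sequence before 1 of its 2 RefSeq starts is given here because FAH was the 1 tested gene of the set that fell, for comparison with TDO2. It is chr15:80152546-80152779 on GRCh38.p14, plus strand, read 5′ to 3′, without bases of annotated exons, it lies inside the span of FAH in GENCODE, which begins before this start, and capitals mark each C followed by a G.
FAH: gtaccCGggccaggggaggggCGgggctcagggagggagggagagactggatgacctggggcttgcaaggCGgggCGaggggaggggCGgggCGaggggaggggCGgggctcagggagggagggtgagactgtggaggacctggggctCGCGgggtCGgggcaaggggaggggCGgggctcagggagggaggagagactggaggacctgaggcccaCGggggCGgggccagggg

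Since HGD and FAH moved apart, the balance between the steps was also set out, as a description chosen after their values were seen and with no test. Per transcript length, that is as FPKM, which the authors scaled by length and depth, HGD was 9.28, 10.0 and 10.4 times FAH in Huh7 P libraries and 23.7, 24.2 and 22.9 times FAH in Huh7 LR libraries. GSTZ1 was 1.63 ± 0.24 times FAH in Huh7 P and 3.5 ± 0.224 times FAH in Huh7 LR cells (SD, n = 3 each). The ratio of HGD to GSTZ1 was 6.14 ± 0.646 and 6.77 ± 0.276 (SD, n = 3 each), and its libraries overlapped. FAH RNA was thus lower beside that of HGD and of GSTZ1 in each Huh7 LR library than in any Huh7 P library. This follows from the separate changes of these genes, which did not overlap between the lines, and adds no further result.

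In the kynurenine arm, TDO2 (ENSG00000151790, chr4:155854738-155920406, plus strand), the haem enzyme that opens the tryptophan ring in liver, was counted 19, 9 and 25 times in Huh7 P libraries and 44, 47 and 46 times in Huh7 LR libraries. That is 0.264 ± 0.118 CPM and 0.673 ± 0.0022 CPM (SD, n = 3 each). The Huh7 LR libraries were nearly equal, the Huh7 P libraries differed among themselves by over 2-fold, and the lines did not overlap. TDO2 was higher by 1.34 on the log2 scale with a standard error of 0.387 and an adjusted p of 0.0154, and the 95% interval of 1.40 to 4.57-fold is wide. The call rested on Huh7 P replicate 2, the lowest library. Without it the log2 fold change was 1.06 and the adjusted p was 0.0539, over a range of 0.0122 to 0.0539 across 11 alternatives. IDO1 and IDO2, the other enzymes able to open the ring, had 0 counts in all 6 libraries, where 3 counts would be at most 0.0478 CPM. The sequence before the RefSeq start of TDO2, which had the highest fitted fold change of the 8 tested genes, is chr4:155903446-155903692 on GRCh38.p14, plus strand, read 5′ to 3′ without bases of annotated exons. It lies inside the span given above for TDO2, which in GENCODE begins at an earlier start, and in contrast to that of FAH it has no C followed by a G to set in capitals.
TDO2: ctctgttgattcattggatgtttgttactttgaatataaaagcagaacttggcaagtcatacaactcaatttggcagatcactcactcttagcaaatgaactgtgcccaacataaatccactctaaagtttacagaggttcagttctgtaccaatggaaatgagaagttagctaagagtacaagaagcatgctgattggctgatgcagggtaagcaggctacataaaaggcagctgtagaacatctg

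AFMID (ENSG00000183077, chr17:78187317-78207701, plus strand), the formamidase that releases kynurenine, reached 2545, 2157 and 2194 counts in Huh7 P libraries and 2262, 2841 and 2843 in Huh7 LR libraries, or 34.7 ± 0.99 and 39 ± 3.74 CPM (SD, n = 3 each). In CPM, Huh7 LR replicate 1 fell among the Huh7 P libraries and the other two lay above them. The log2 fold change of AFMID was 0.17 with a standard error of 0.084 and an adjusted p of 0.123. Without Huh7 LR replicate 1 it was 0.25 with an adjusted p of 0.0185, over a range of 0.0185 to 0.385 across 14 alternatives.

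KYNU (ENSG00000115919, chr2:142877498-143055832, plus strand), kynureninase, cleaves kynurenine and hydroxykynurenine. The parental libraries held 210, 169 and 189 counts of KYNU and the resistant ones 182, 167 and 168, or 2.85 and 2.55 CPM on average. One Huh7 LR library lay within the Huh7 P range and the other two lay below it. Its log2 fold change was −0.16 with a standard error of 0.154 and an adjusted p of 0.416, and the 95% interval was 0.706 to 1.13 times the Huh7 P level.

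KMO (ENSG00000117009, chr1:241532134-241595642, plus strand), the mitochondrial enzyme that hydroxylates kynurenine, gave 19, 15 and 27 counts in Huh7 P libraries, beside 20, 23 and 20 in Huh7 LR libraries. Each Huh7 LR library lay within the Huh7 P range in CPM. Its log2 fold change was 0.01 with a standard error of 0.396 and an adjusted p of 0.984, and the 95% interval was 0.551 to 1.84 times the Huh7 P level, so that smaller changes of either sign were not detectable. KMO shares 1691 exon bases, 28.4% of its own, with OPN3 on the opposite strand. The kit named in the labels does not mark strand, and how reads there were assigned is not given in the sources used here, so the KMO values are uncertain. OPN3 had 31.4 and 40.9 CPM in Huh7 P and Huh7 LR cells, a log2 fold change of 0.38 with an adjusted p of 0.103.

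KYNU and KMO are also expressed by macrophages. Of 8 monocyte and macrophage markers, TYROBP and HLA-DRA had 0 counts in every library and PTPRC was at 0 to 0.214 CPM. The summed level of the 8 was 62.3 to 67.8 CPM in Huh7 P and 10.8 to 14.8 CPM in Huh7 LR libraries, most of it LYZ, which fell by 2.79 on the log2 scale with an adjusted p of 4e-08. Of the other 3 markers tested, CSF1R and AIF1, both under 1 CPM, were higher, with log2 fold changes of 2.04 and 1.30 and adjusted p of 0.0116 and 0.0155, and CD14 did not pass. Of the 7 fibroblast and stellate markers 3 were tested, COL1A1 and PDGFRB being higher and RGS5 lower, with log2 fold changes of 1.84, 0.84 and −0.54 and adjusted p of 9.12e-05, 0.00952 and 0.0422, and DCN was at 0 throughout. Of the 5 endothelial markers 3 were tested, PECAM1 and VWF being higher, with log2 fold changes of 0.64 and 2.95 and adjusted p of 1.35e-04 and 0.0179, STAB2 did not pass, and KDR and CDH5 were at 0. The sums of these lists were 5.79 to 7.85 and 39.1 to 47.7 CPM in Huh7 P and 7.51 to 11.6 and 65.3 to 71.4 CPM in Huh7 LR libraries, the endothelial sum being mostly PECAM1. Of the tested markers, 75% of the macrophage, 100% of the fibroblast and 66.7% of the endothelial list passed, beside 45.7% of everything tested. The part of the summed levels in the differences above was not tested.

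**Figure D2:**
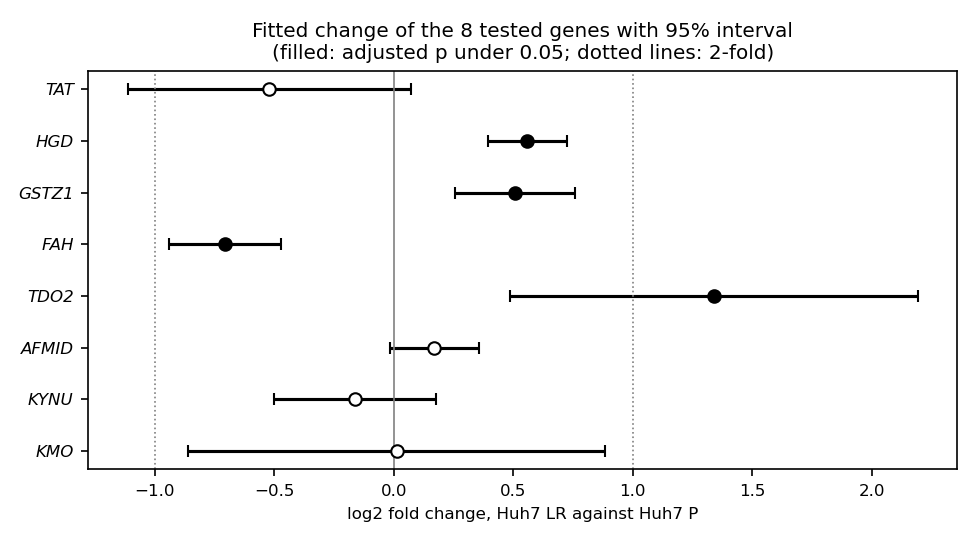
Fitted log2 fold change of Huh7 LR against Huh7 P for the 8 tested genes in pathway order, with 95% intervals; filled points have an adjusted p under 0.05 and dotted lines mark a 2-fold change. The intervals of HGD and GSTZ1 lie above 0, that of FAH lies below 0, and that of TDO2 lies above 0 and is the widest of the 4 that passed.

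Other genes lie close to some of these loci. TAT-AS1 shares 423 bases of TAT exons on the opposite strand and was not analysed here, and ZNF19, 571 bases from TAT, had a log2 fold change of 0.34 with an adjusted p of 0.0746. POMT2 shares 1 exon base with GSTZ1 and had a log2 fold change of 0.17 with an adjusted p of 0.156. TK1, on the opposite strand 84 bases from AFMID, had a log2 fold change of 0.04 with an adjusted p of 0.794. ASIC5 lies across TDO2 on the opposite strand without shared exon bases and had 0 counts in all libraries. AC087761.1, a noncoding gene on the strand of FAH that overlaps its span, shares 0 exon bases with it and was not analysed here. None of the tested neighbours passed at an adjusted p under 0.05. HPD and KYNU share 112 and 122 exon bases with AC079360.1 and AC013444.2, which were not analysed here.

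Levels can be compared between genes only per length, so the order of the 9 was taken from FPKM, with no test. In Huh7 P cells HGD stood first at 61.2 ± 0.393 FPKM, above 95% of the 19974 annotated genes. AFMID followed at 27.7 ± 0.706, GSTZ1 at 10.1 ± 1.09 and FAH at 6.19 ± 0.342 FPKM (SD, n = 3). These 4 genes were separated from each other and from the rest in every library.

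The remaining 5 genes were all under 1 FPKM. TAT at 0.311 ± 0.0872 and KYNU at 0.303 ± 0.0719 FPKM overlapped, and TDO2 at 0.149 ± 0.0815, KMO at 0.0525 ± 0.0156 and HPD at 0.00392 FPKM came below them (SD, n = 3). TAT and TDO2, which start the arms, were therefore far below HGD and AFMID. The later steps HPD and KMO were lower than both, and KYNU was near TAT, so low RNA was not particular to the entry steps. Enzyme amounts were not measured.

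In Huh7 LR cells the order of the first 4 was the same, with HGD at 91.9 ± 6.82, AFMID at 30.6 ± 2.87, GSTZ1 at 13.6 ± 1.145 and FAH at 3.89 ± 0.24 FPKM (SD, n = 3). TDO2, at 0.366 ± 0.00471 FPKM, stood above TAT at 0.22 ± 0.044 and KYNU at 0.21 ± 0.0348, which overlapped, and KMO and HPD, at 0.0533 and 0.0459 FPKM, overlapped as well. TDO2 thus moved from the seventh to the fifth place. For KYNU the transcript length implied by the ratio of counts to FPKM varied from 7354 to 14690 bases between libraries, and its ratio of mean FPKM was −0.53 on the log2 scale against −0.16 for CPM. For the other genes this length varied by at most 1.25 times.

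**Figure D3:**
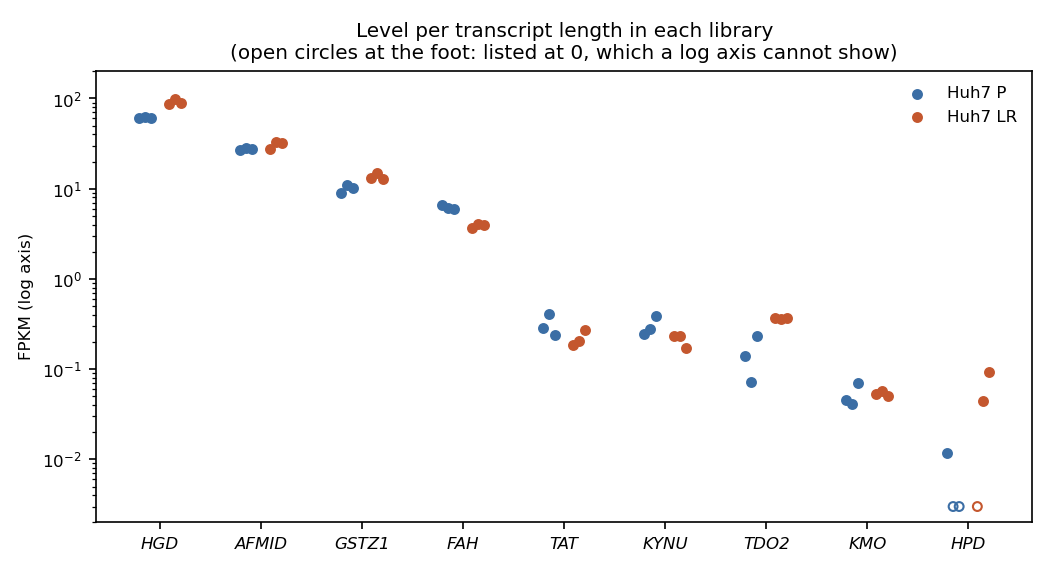
FPKM of the 9 genes on a log axis, ordered by their Huh7 P mean, with a point for each Huh7 P (blue) and Huh7 LR (orange) library; open circles at the foot are libraries listed at 0. HGD, AFMID, GSTZ1 and FAH lie between 3.63 and 99.4 FPKM in every library, and the other 5 genes lie below 0.41 FPKM.

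Upstream sequence was at hand for 7 of the 9 genes, as 9 RefSeq windows of 250 bases before to 50 bases after a start, and TAT and HGD were not matched. The stretch printed for FAH holds 13 CG steps (a C followed by a G) at 76.5% G and C, and that printed for TDO2 holds 0 at 39.7%. In the 250 bases before the start GSTZ1 had 28 CG steps, AFMID 24 and FAH 16 and 19 in its windows. HPD had 5 and 29, and KYNU and KMO had 1 each. Over the same 250 bases of all 35116 windows the median was 11 steps and 58% G and C. Of these 250 bases, annotated exons held 250 for GSTZ1, 167 for AFMID and 16 and 219 for FAH. They held 185 and 131 for HPD, 166 for KYNU, 244 for KMO and 3 for TDO2. The genes above 1 FPKM with a window, AFMID, GSTZ1 and FAH, had more CG steps than the median of 11 in every window. Of these GSTZ1 rose, FAH fell and AFMID did not pass the test. HPD, the lowest gene in FPKM, had the most CG steps, 29, in 1 of its windows, and HGD, the highest, had no window. No link between CG steps and level was tested.

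Short motifs were searched on both strands of the 300-base windows. CAAAGTCCA for HNF4 and TTGCNNCAA for CEBP factors were in 0 of the 9 windows, and in 0.384% and 1.98% of all windows. AGAACA, part of the sequence that the glucocorticoid receptor binds, was in the TDO2 window at −13 from the start and in 1 HPD window at −128, and in 14.8% of all windows. In that HPD window the 250 bases before the start, chr12:121888612-121888861, lie outside the span given above for HPD. TATAAA, the TATA box, was in the windows of AFMID at −31, KMO at −29, KYNU at −68, −66 and −250 and TDO2 at −216, and in 11.5% of all windows. A match describes letters in a window, not a bound site, and an absent match says only that these letters were not there.

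The genes most like the 2 entry enzymes over the 6 libraries were found as those with the smallest Euclidean distance between profiles of log2(CPM + 0.5), each centred on its own mean, among 14045 annotated genes. For TAT they were TMED6 at a distance of 0.109, ADAM28, a metalloprotease, at 0.209, and TIGAR, a sugar bisphosphatase, at 0.216, where the median gene lay at 0.741. All 3 had negative log2 fold changes, from −0.74 to −0.29. Profiles were matched over the libraries of both lines, so a shared sign follows from the choice and is no separate result. For TDO2 they were MED30, a mediator subunit, at 0.0829, RNASET2, a lysosomal ribonuclease, at 0.106, and SLC2A14, a sugar transporter, at 0.106, with the median gene at 0.928. Their log2 fold changes were 0.72, 0.64 and 0.74, below the 1.34 of TDO2. At the 0.264 and 0.673 CPM of TDO2 in Huh7 P and Huh7 LR cells, the added 0.5 shrinks its profile. SLC2A14 is uncertain because it closely resembles SLC2A3.

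Tetrahydrobiopterin is the cofactor with which aromatic amino acids are hydroxylated. Of the 7 genes counted for its synthesis and recycling, all tested, 1 was higher, 2 were lower, 4 did not pass and 0 passed the 2-fold threshold. QDPR, which regenerates the cofactor, rose by 0.35 on the log2 scale with an adjusted p of 0.00178, and PCBD1 and PCBD2, which act in the same recycling, fell by 0.56 and 0.50 with adjusted p of 6.34e-05 and 0.0205. GCH1, the first enzyme of cofactor synthesis, had a log2 fold change of −0.16 with an adjusted p of 0.12. Without Huh7 P replicate 1, Huh7 P replicate 2 or Huh7 LR replicate 1, 1 gene of this list was lower instead of 2.

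Of the 16 other genes of the kynurenine and NAD branch, 12 were tested, of which 4 were higher, 4 were lower and 0 passed the 2-fold threshold. QPRT, which makes nicotinic acid mononucleotide from quinolinate, had 248, 239.9 and 239.9 CPM in Huh7 P and 430.0, 415 and 412 CPM in Huh7 LR libraries. It rose by 0.79 on the log2 scale with an adjusted p of 4.6e-06, and the lines were far apart. HAAO, which makes the precursor of quinolinate, rose by 0.38 with an adjusted p of 0.0337, its libraries overlapped, and the adjusted p lay between 0.0145 and 0.126 across 14 alternatives. The call of HAAO was lost without any 1 of Huh7 P replicates 2 and 3 and Huh7 LR replicates 2 and 3, where the log2 fold change was 0.31 to 0.35.

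ACMSD, which diverts that precursor away from NAD, had a log2 fold change of −0.16 with an adjusted p of 0.543. IL4I1, an amino acid oxidase at under 1 CPM, and DHTKD1 were the other genes that were higher, with log2 fold changes of 1.16 and 0.48 and adjusted p of 0.0472 and 1.03e-04. KYAT3, AADAT and GOT2, transaminases that can act on kynurenine, and GCDH were lower, with log2 fold changes of −0.51 to −0.33. The list had 2 higher genes, in place of 4, without Huh7 P replicate 3, Huh7 LR replicate 2 or Huh7 LR replicate 3, and 2 lower genes, in place of 4, without Huh7 P replicate 2, Huh7 LR replicate 1 or Huh7 LR replicate 3. It had 3 higher genes with the replicate block, the DESeq2 Wald test or no filter.

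In the branch to serotonin and aromatic amines, 5 of 8 genes were tested and 3 were higher and 2 lower. DDC, the aromatic amino acid decarboxylase, and MAOA and MAOB, the monoamine oxidases, rose by 0.33, 0.48 and 0.50 on the log2 scale with adjusted p of 0.00607, 0.00166 and 0.00194. TPH1, which starts serotonin synthesis from tryptophan, fell by 0.83 from 1.56 to 0.88 CPM with an adjusted p of 0.00802. AANAT fell by 1.63 with an adjusted p of 0.0295 at under 0.3 CPM, and the list had 1 lower gene in place of 2 without Huh7 P replicate 1, 2 or 3 or without Huh7 LR replicate 1 or 3. TPH2 had 0 counts in all libraries.

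Among transporters of aromatic amino acids, 6 of 7 genes were tested, of which 1 was higher and 3 were lower. SLC7A5, the light chain of the large neutral amino acid exchanger, had 175, 161 and 153 CPM in Huh7 P and 50.2, 69.6 and 48.2 CPM in Huh7 LR libraries. It fell by 1.54 on the log2 scale with a standard error of 0.127 and an adjusted p of 5.19e-06, and it was the 1 gene of this list past the 2-fold threshold. SLC3A2, its heavy chain, had a log2 fold change of 0.03 with an adjusted p of 0.753. SLC16A10, a carrier of tyrosine, phenylalanine and tryptophan, rose by 0.69 with an adjusted p of 1.64e-04, and SLC43A2 and SLC6A19 fell by 0.39 and 0.41 with adjusted p of 0.00217 and 0.0364. SLC7A8 was under the filter, and the count of higher genes was 2 without Huh7 P replicate 1, 2 or 3 or without Huh7 LR replicate 1. The count of lower genes was 2 without any 1 Huh7 P replicate, without Huh7 LR replicate 1 or 3, and with limma-trend on FPKM.

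Breakdown of the other amino acids was measured beside these arms through 40 genes, of which TDH was not analysed here and 34 were tested. Of these, 9 were higher, 10 were lower and 15 did not pass, with a median log2 fold change of −0.13. MAT1A, which makes S-adenosylmethionine in hepatocytes, was the 1 gene called higher past 2-fold, at 20.3 and 51.6 CPM with an adjusted p of 4.85e-07. PRODH2, a hydroxyproline dehydrogenase, was the 1 gene called lower, at 1.23 and 0.382 CPM with a log2 fold change of −1.68 and an adjusted p of 5.49e-04, and with limma-trend on log2(FPKM + 1) its log2 fold change was −0.45. Leaving out any 1 of the 6 libraries brought the adjusted p of PRODH2 to between 0.00102 and 0.00428, short of that threshold, over a range of 6.54e-05 to 0.00428 across 14 alternatives.

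Because glucocorticoids are known to induce TAT and TDO2, the receptor and its common targets were also counted. Of 12 genes, 10 were tested, with 5 higher, 1 lower and 4 not passing. SGK1, a kinase, was the 1 past the 2-fold threshold, with 68.0 and 162 CPM, a log2 fold change of 1.25 and an adjusted p of 9.02e-07. NR3C1, the receptor, rose by 0.46 with an adjusted p of 0.00401, and FKBP5, a chaperone that binds the receptor, fell by 0.71 with an adjusted p of 1.23e-04. TSC22D3, KLF9 and DUSP1 were the other targets that were higher, with log2 fold changes of 0.59, 0.67 and 0.94. Of tested genes, 42.9% passed the single-gene threshold in the cofactor list, 66.7% in the kynurenine and NAD list and 100% in the serotonin list. The share was 66.7% for transporters, 55.9% for other amino acids and 60% for the glucocorticoid list. Over everything tested it was 45.7%, with 23.3% higher and 22.4% lower, and 6.21% passed the 2-fold threshold.

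**Figure D4:**
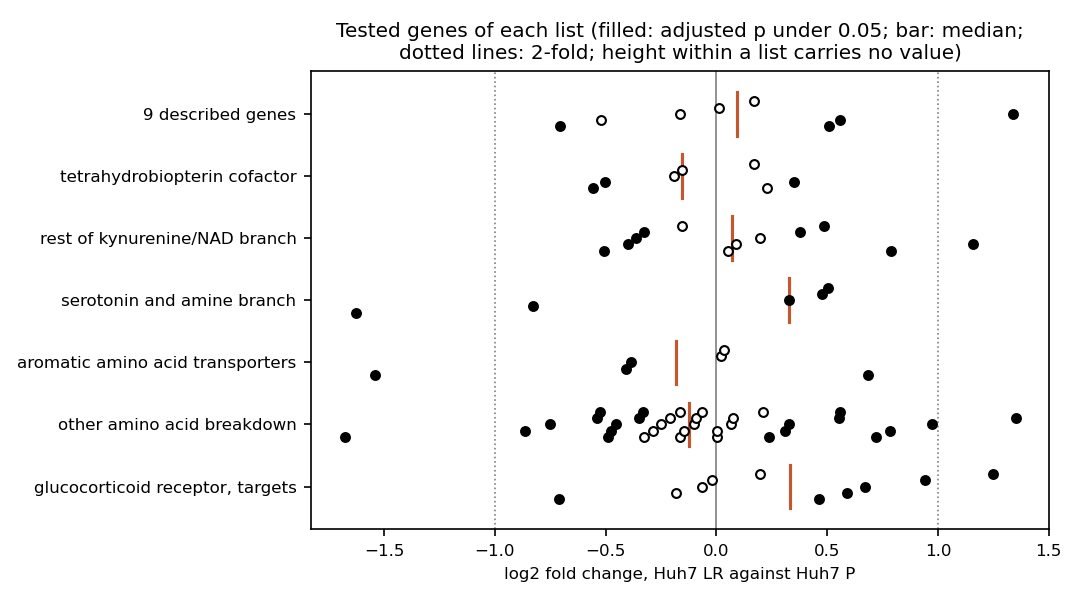
Log2 fold change of Huh7 LR against Huh7 P for each tested gene of the 9 enzymes and 6 surrounding lists; filled points have an adjusted p under 0.05, orange bars are the medians, dotted lines mark a 2-fold change, and the height within a list carries no value. Each list holds genes on both sides of 0, and the medians lie between −0.18 and 0.33.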

How the data were processed

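Poly(A) RNA of 3 Huh7 P and 3 Huh7 LR samples had been sequenced, and the authors deposited both a read count and an FPKM for every gene in each library. The deposited counts are whole numbers without normalisation, whereas the deposited FPKM had been adjusted by the authors for length and depth. The submitters' processing notes name TopHat2, Cufflinks, DESeq and the mouse build mm10, and the labels describe extraction from honeybee larvae, although all 19974 annotated identifiers are human and present in GENCODE 29. The strand setting is not given in the sources used here. The 34 lines that name no gene were left out. A further 6210 loci, with 2.86% to 3.35% of counts, match no annotated gene and stayed in the fit.

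Counts were fitted in R 4.3.3 with edgeR 4.0.16 (filterByExpr with a minimum count of 10 and a minimum total of 15, TMM, quasi-likelihood test, Benjamini-Hochberg adjustment over 17531 genes and loci; biological coefficient of variation 12.7%) and no covariates. The standard error is the log2 fold change divided by the square root of F. Beside 0.05 for single genes, a stricter threshold was used (adjusted p under 0.001, log2 fold change beyond 1 in size), which has the limits of the study, where the p is not stated to be adjusted. Since the samples of each line come from 1 line, p-values measure the spread between such samples. Coordinates and exon overlaps are from GENCODE 29 on GRCh38, and upstream windows from RefSeq on GRCh38.p14.

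The 9 genes and all lists were chosen with earlier results of these data known. The text names every one of the 9, QDPR, GCH1, IDO1, HAAO, ACMSD and QPRT whatever their values, up to 4 called genes per list by absolute log2 fold change, genes overlapping or within 1 kb of the 9, and the 3 nearest profiles to TAT and TDO2. A few items were left out of the lists and motifs and are not reported here. Other genes of the lists and markers named were picked after their values were seen. Alternatives were DESeq2 1.42.0 size factors and Wald test, other filters, limma-trend (limma 3.58.1) with a pseudocount of 0.1 or 1 on FPKM where 3 libraries reached 0.5, a replicate block, annotated genes alone and each library left out.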

Additional observations from a re-analysis of the deposited data

How the results depend on the processing

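HGD, GSTZ1 and FAH kept their direction and an adjusted p under 0.05 in all 14 alternatives. Log2 fold changes spanned 0.50 to 0.61 for HGD, 0.40 to 0.58 for GSTZ1 and −0.74 to −0.56 for FAH. TAT and KYNU stayed short of it in 12. Leaving out 1 library at a time gave TAT values of −0.70 to −0.27, TDO2 values of 1.06 to 1.69, AFMID 0.12 to 0.25, KMO −0.12 to 0.28 (−0.09, −0.12 and −0.03 without Huh7 P replicate 1, Huh7 P replicate 2 or Huh7 LR replicate 2) and ACMSD −0.31 to 0.00399 (the last without Huh7 LR replicate 1). The same gave 1 to 2 lower genes in the cofactor list, 2 to 3 higher and 2 to 4 lower in the kynurenine and NAD list, 1 to 2 lower in the serotonin list and 1 to 2 higher among transporters, beside 2, 4, 4, 2 and 1 with all libraries.

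Calls over all genes and loci, 776 higher and 312 lower, were 589 and 212 with limma-trend on log2(FPKM + 0.1), and 268 and 84 with the higher pseudocount of 1, both with another unit, test and filter than the counts. Both limma-trend settings gave 2 higher genes and 1 lower gene in the cofactor list and 0 lower genes in the serotonin list. The serotonin list had 1 lower gene with the DESeq2 Wald test, no filter, at least 10 counts in every library or the replicate block, and transporters had 2 higher genes with the DESeq2 Wald test or no filter. The KYNU ratio of means was −0.16 with CPM in place of FPKM. The cause of these changes was not tested.

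With the replicate block, calls were 783 higher and 316 lower and members stayed at 3 higher and 1 lower. Same-numbered samples had correlations of deviations of 0.0572, 0.0668 and 0.0254, each the highest for its sample, which is a hint from the data and not a design, and no label pairs them. TDO2 could not be tested with at least 10 counts in every library or on FPKM, and HPD could be tested without a filter and with DESeq2. Depth limits what can be said of HPD, TDO2 and KMO, which had at most 47 counts in a library. Smaller changes of a count are not all listed. The 3 higher of the 9 genes were 2 without Huh7 P replicate 2, with at least 10 counts in every library or on FPKM, and 4 without Huh7 LR replicate 1.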
